A study of Macaca mulatta with 23 samples.

Results

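The opioid system of the brain was examined here through the DNA methylation of 7 of its genes in the central nucleus of the amygdala. PENK, PDYN and PNOC encode peptide precursors and the others encode receptors (OPRM1, OPRD1, OPRK1 and OPRL1). Members were all positions of the methylation table that lay in 7 windows of the human genome build hg19, given in kilobases around each gene. The windows held 95 of the 444312 positions of the table. Of these, 38 lay in the window of OPRD1, 31 in that of OPRM1, 12 in that of OPRL1, 9 in that of PDYN and 5 in that of PNOC. The windows of OPRK1, the kappa receptor gene, and PENK, the proenkephalin gene, held 0 positions of the table, so both genes were not analysed here. No gene was therefore covered in full, and PDYN and PNOC are represented by a single short stretch each.

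The samples came from 23 young rhesus monkeys (Macaca mulatta), with 1 library of genomic DNA per monkey. Digestion with the enzyme MspI enriched CpG-rich DNA, and bisulfite then told methylated from unmethylated cytosines (reduced representation bisulfite sequencing). Each monkey had a continuous anxious temperament score, between -1.48 and 1.43 over all of them, and an age from 1.1 to 2.13 years, and the labels name no treatment or genotype. Each monkey gave tissue of 1 side of the brain, the left in 11 and the right in 12, and monkeys are named here by side and number. The tissue is bulk, so a change in the share of cells of a type and a change of methylation within cells cannot be told apart.

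Opioid peptides are cut from larger precursor proteins and act on receptors that couple to inhibitory G proteins and dampen the activity of neurons. OPRM1 encodes the mu receptor, on which endorphin, enkephalins and morphine act, OPRD1 the delta receptor, which prefers enkephalins, and OPRL1 the receptor of nociceptin. PDYN encodes the precursor of the dynorphins, ligands of the kappa receptor, and PNOC that of nociceptin. In rodents, neurons of the central amygdala that use GABA also make enkephalin, dynorphin or nociceptin, and these peptides take part in fear, stress and reward. CpG-dense DNA at gene starts is usually unmethylated, while CpGs inside genes are often methylated.

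Libraries were of unequal quality in these windows. Of the 95 positions, 41 were missing in left 3, 39 in right 9 and 33 in right 12, against 0 in the median library. At the 10 member positions with a mean level between 20% and 80%, right 9 had 7 values, and 5 of them were exactly 0 or 100%. The other monkeys had at most 2 such values. How many reads stand behind a level is unknown, and results that rest on right 9 are given with and without it.

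Most of the measured opioid positions had low levels. The level averaged over monkeys was below 20% at 68 of the 95 positions (71.6%) and above 80% at 17 (17.9%), which left 10 (10.5%) in between. Over the whole table the shares were 60.9% below 20%, 21.1% above 80% and 18% in between. Levels also differed little between monkeys at most positions, with an SD of 10 points or more at 8 of the 95 positions (8.42%), against 21.8% of all positions. These shares were not matched for level, and all 8 positions had a mean level between 20% and 80%. Positions were joined into a run where 3 or more followed each other without a gap over 200 bp, which gave 8 runs, 2 each in OPRM1, OPRD1 and OPRL1 and 1 each in PDYN and PNOC. Run 1 of OPRM1, with 25 positions, and run 1 of OPRD1, with 20, make up much of the share below 20%. That share therefore rests largely on 2 short stretches. Each run is placed by its distance from the edges of its window. Exons, introns and untranslated parts were not assigned without an hg19 annotation. Runs are named by their window, and whether a run lies in that gene or in another was not determined.

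**Figure D1:**
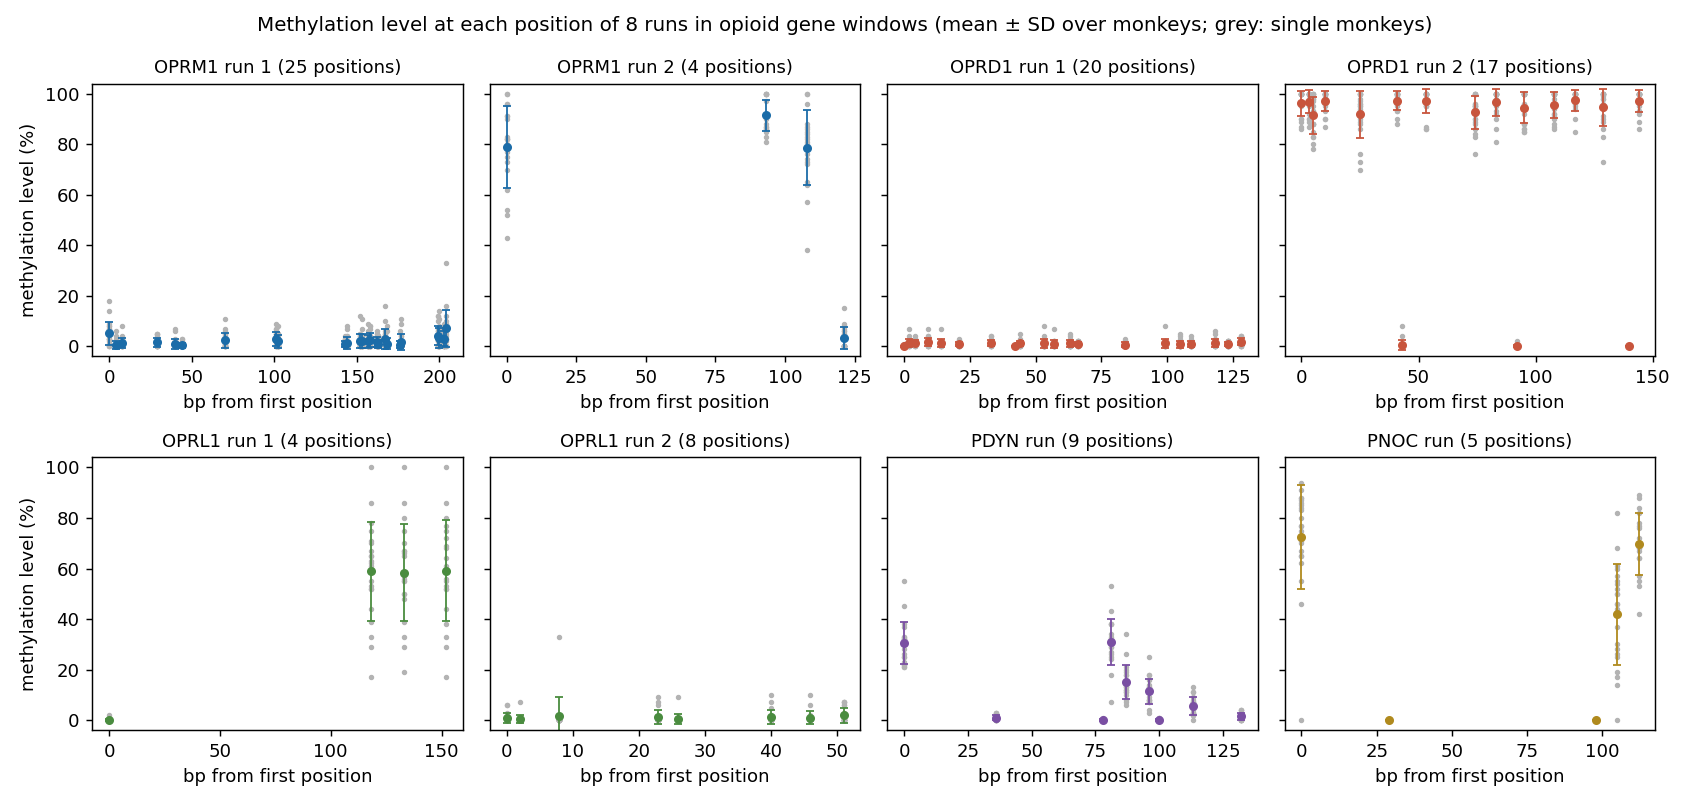
Methylation level in percent (vertical axis) against the distance in base pairs from the first position of each run (horizontal axis). Coloured points are means with SD over monkeys and grey points are single monkeys. The first runs of OPRM1 and OPRD1 and the second run of OPRL1 lie near 0, the second run of OPRD1 lies over 90% except at 3 positions near 0, and the OPRL1 and PNOC points spread widely.

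The window of OPRM1, the mu receptor gene, held 1 unmethylated run and scattered methylated positions far from it. Run 1 held 25 positions on chromosome 6 from 154360662 to 154360866, 32.7 kb above the lower edge of the window. In the human genome OPRM1 is read towards higher coordinates. The run level was lowest at 0.96% in left 3, had a median of 2% and was highest at 3.96% in left 9. Its mean was 2.2% ± 0.798 (SD, n = 23). Left and right samples overlapped, with means of 2.18% ± 0.942 (SD, n = 11) and 2.22% ± 0.682 (SD, n = 12). The mean of single positions ran from 0.364% to 7.1%. The highest, at 154360866, was 5.74% ± 4.27 (SD, n = 19) without right 9, which stood at 33% there. Of the runs with 10 to 49 positions in the table, 36.6% had a mean level as low, and the median level of such runs was 14.9%.

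In 9 places of the OPRM1 run, positions that follow each other directly were both in the table, as happens when the cytosines of both strands of a CpG are read. Averaged over monkeys with its sign, the difference between the positions of a pair was 2.79 points or less in size, with a median of 1.05 points over the pairs. In single monkeys the difference was wider, from -16 points at 154360829 and 154360830 to 13 points at 154360865 and 154360866. The pair with the largest average difference was 154360865 and 154360866, where the second position was the higher one. Over the whole table, 9.14% of 126417 such pairs differed in their means by more than 20 points, and 0 of the 9 OPRM1 pairs did. No position of the OPRM1 run averaged above 7.1%, so a difference of that size could not arise there. The comparison therefore says nothing about how well the strands match.

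The far side of the OPRM1 window was mostly methylated. Run 2 held 4 positions on chromosome 6 from 154562811 to 154562932, 202 kb above run 1 and 8.07 kb below the upper edge. Its 4 positions differed in level. Position 154562904 averaged 91.4% ± 6.21 (SD, n = 20). Positions 154562811 and 154562919 averaged 79% ± 16.2 (SD, n = 20) and 78.6% ± 14.8 (SD, n = 20), with single monkeys between 38% and 100%. The last position, 154562932, averaged 3.45% ± 4.39 (SD, n = 20) only 13 bp further on. As a whole the run was lowest at 44.2% in right 11, had a median of 64.8% and was highest at 75% in right 8. Between the runs, 154539922 averaged 95.8% ± 4.41 (SD, n = 20) and 154539719 averaged 5.1% ± 5.72 (SD, n = 20). In a macaque gene table (RefSeq, T2T-MMU8v2.0) the named genes listed before and after OPRM1 by start coordinate are RGS17 and IPCEF1. Whether run 2 and the positions between the runs belong to OPRM1 or to another gene was not determined. Low positions beside methylated ones recur in the other windows. Bisulfite data cannot separate an unmethylated cytosine from a thymine of the macaque genome, and which of these applies was not tested.

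OPRD1, the delta receptor gene, showed the clearest contrast between its ends. Run 1 held 20 positions on chromosome 1 from 29139012 to 29139140, 4.01 kb above the lower edge, and OPRD1 too is read towards higher coordinates in the human genome. Every position of this run had a value in all 23 monkeys. The run level was lowest at 0.15% in left 4, had a median of 1.05% and was highest at 2.15% in left 7. No single value in it exceeded 8%, and no position of it had a mean above 1.83%. The mean was 1.08% ± 0.5 (SD, n = 23), again alike in left (1.08% ± 0.59, SD, n = 11) and right samples (1.07% ± 0.429, SD, n = 12). Among runs of 10 to 49 positions, 98.4% had an SD over monkeys at least as large. The median level of such runs was 14.9%, and runs were not matched for level.

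Run 2 of OPRD1, 50.4 kb further up and 4.31 kb below the upper edge, held 17 positions on chromosome 1 from 29189547 to 29189691. At 14 of them the mean level lay between 91.4% and 97.4%. Their average was lowest at 86.2%, had a median of 96.6% and was highest at 100% over 22 monkeys, with a mean of 95.7% ± 4.1 (SD, n = 22). The other 3 positions, 29189590, 29189639 and 29189687, had means of 0.6%, 0.0909% and 0. Run 2, taken over its 14 methylated positions, stood above run 1 by 85.1 points or more in each of the 22 monkeys. The widest spread in the window was at 29189572, where the level was lowest at 70%, had a median of 95% and was highest at 100% (mean 91.8% ± 9.18, SD, n = 20). A lone position between the runs, 29178455, averaged 94% ± 7.16 (SD, n = 19).

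OPRL1, the nociceptin receptor gene, held the positions whose levels moved most widely as a set. Run 1 lay on chromosome 20 from 62708449 to 62708601, only 0.449 kb above the lower edge of the window. In a macaque gene table (RefSeq, T2T-MMU8v2.0) the named genes listed before and after OPRL1 by start coordinate are LKAAEAR1 and NPBWR2. Their places in hg19, and other genes that may overlap the window, were not looked up. Whether run 1 belongs to OPRL1 or to another gene was not determined, and the same holds for OPRL1 run 2. Its first position was at 0.0952% ± 0.436 (SD, n = 21). The other 3, at 62708567, 62708582 and 62708601, averaged 58.9%, 58.3% and 59.1%, each with an SD between 19.2 and 20 points (n = 21).

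Within a monkey these 3 OPRL1 positions were nearly equal. Neighbours this close can share fragments and reads, so they are not 3 independent measurements. The 3 levels spread by 3 points in the median monkey, by 10 points or less in 20 of 21 monkeys, and by 22 points in right 7. Between monkeys their average ran from 17.7% in left 11 through a median of 60% to 100% in right 9. Without right 9 the highest was right 4 at 86%, and the mean was 56.7% ± 17.2 (SD, n = 20) in place of 58.8% ± 19.3 (SD, n = 21). Left samples (17.7% to 76.7%, median 54.3%, n = 10) overlapped the right ones (29% to 100%, median 63.3%, n = 11). Among runs of 3 to 9 positions in the table, 5.12% had an SD at least as large as that of OPRL1 run 1. That SD, 14.4 points, includes right 9. Without right 9 it was 12.9 points, for which the share is not given. How much of the spread between monkeys comes from low read numbers was not tested.

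**Figure D2:**
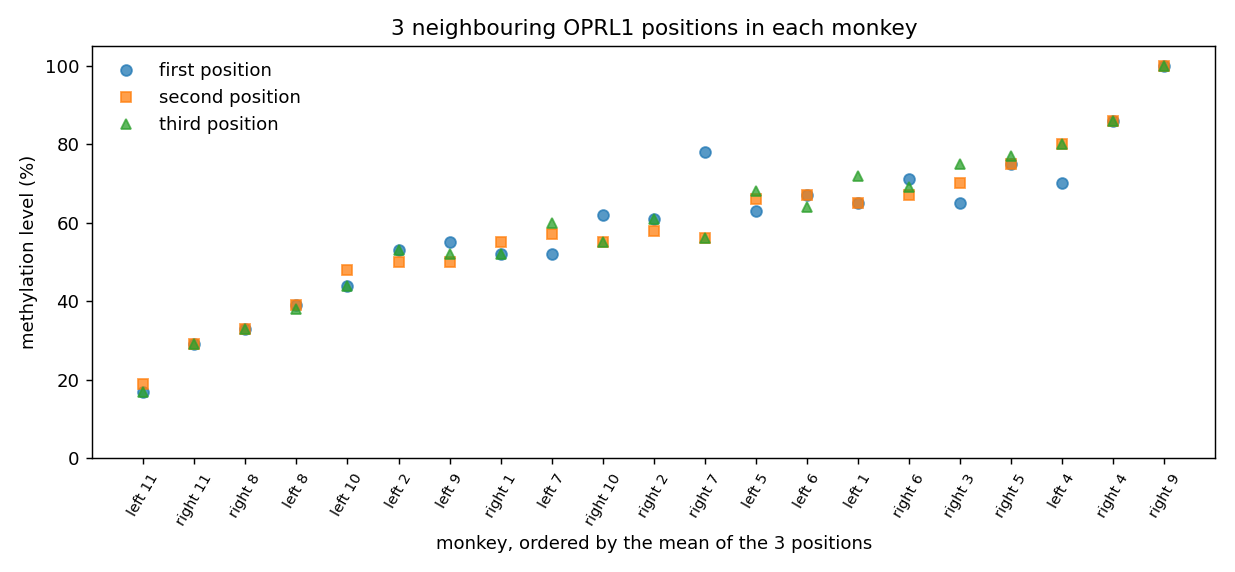
Methylation level in percent (vertical axis) at 3 neighbouring OPRL1 positions in 21 monkeys (horizontal axis), ordered by the mean of the 3 positions. Each symbol stands for 1 of the positions. The symbols nearly coincide within most monkeys, while the monkeys span 17.7% to 100%. Neighbouring positions can share reads, so the symbols of a monkey are not independent.

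Run 2 of OPRL1 lay 6.75 kb further up, on chromosome 20 from 62715351 to 62715402, and was unmethylated. Its 8 positions had means between 0.368% and 2%. The table held 152 values there, of which 129 were exactly 0 and 1 exceeded 10%, a value of 33% at 62715359 in right 7. All 8 had values in 19 monkeys, below the minimum of 20, so this run was described and not tested. The run level was lowest at 0, had a median of 0.875% and was highest at 4.12% in right 7 (mean 1.09% ± 1.15, SD, n = 19).

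The only measured stretch in the window of PDYN, the prodynorphin gene, lay 0.072 kb above its lower edge, on chromosome 20 from 1956072 to 1956204. PDYN is read towards lower coordinates in the human genome, so this run is on the side of the gene's end and not of its start. Whether the run lies inside PDYN or beyond the end of the gene was not determined. Levels were uneven along the 133 bp of the run. They averaged 30.6% ± 8.36 at 1956072, 30.9% ± 9.14 at 1956153, 15.1% ± 6.54 at 1956159, 11.4% ± 5.06 at 1956168 and 5.43% ± 3.53 at 1956185 (SD, n = 21 each). The other 4 positions, 1956108, 1956150, 1956172 and 1956204, averaged 1.48% or less. All of these but the last lie between positions with higher levels. The run as a whole was lowest at 6.67% in right 11, had a median of 10.2% and was highest at 15.4% in left 1, with a mean of 10.7% ± 1.94 (SD, n = 21). Right 9 lay inside this range at 11.6%, yet it had the highest value at 1956072 (55%) and 1956159 (34%) and the lowest at 1956153 (7%). Without it, 1956153 averaged 32% ± 7.51 (SD, n = 20).

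PNOC, the nociceptin precursor gene, was measured at 5 positions on chromosome 8 from 28196734 to 28196846. They lie 25.7 kb above the lower and 7.15 kb below the upper edge of the window, and PNOC is read towards higher coordinates in the human genome. Position 28196734 had levels from 0 through a median of 77% to 94% (mean 72.5% ± 20.4, SD, n = 22). Without right 9, the monkey at 0, the lowest was 46% and the mean 76% ± 12.6 (SD, n = 21). Position 28196839 ran from 0, again in right 9, through 46% to 82% (mean 41.9% ± 20, SD, n = 22). It averaged 43.9% ± 18.1 (SD, n = 21) without right 9. Position 28196846, 7 bp further on, averaged 69.6% ± 12.3 (SD, n = 19). The other 2, 28196763 and 28196832, were at 0 in every monkey with a value. The mean of this run shifts with the positions a monkey has, since right 8 had a value at 1 of the 5 positions, one of those at 0. The single positions are therefore the better guide for PNOC.

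**Figure D3:**
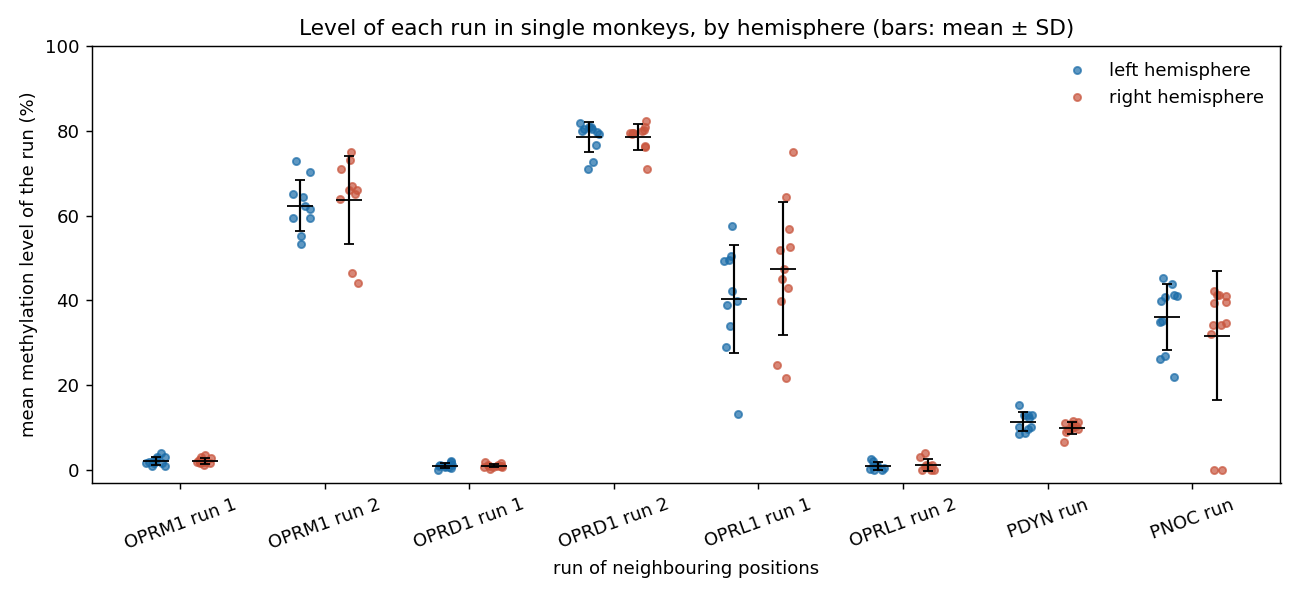
Mean methylation level in percent of each run (vertical axis) for the 8 runs (horizontal axis), with 1 point per monkey, left samples in blue and right samples in red, and bars for the mean with SD. Left and right samples overlap in all 8 runs. The 2 points at 0 in the PNOC run are right 8, with 1 position, and right 9.

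The study asked whether methylation varies with anxious temperament, and age was kept in the model. At the opioid genes no position and no run did so by the test used. The limma fit took in each position of the table whose values spanned 10 points or more and were present in 20 monkeys or more, and slopes are percentage points of methylation per score unit. Of the 95 opioid positions 37 entered, 15 of OPRM1, 12 of OPRD1, 3 of OPRL1, 5 of PDYN and 2 of PNOC, while 12 had too few monkeys and 46 too small a range. Of these, 0 passed a limma adjusted p of 0.05 over the 192151 positions tested, where 0% were called and no adjusted p was smaller than 0.334. Before adjustment 1 of 37 (2.7%) passed 0.05, against 3.12% of all tested positions, so the share at the opioid genes was close to the background. Slopes were above 0 at 13 positions and below 0 at 24, while 47.5% of all tested positions were below 0. The 24 include 11 of OPRD1 and 3 of OPRL1, which are close neighbours within their runs. The median was -0.44, against a median of 0.09 over all tested positions.

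**Figure D4:**
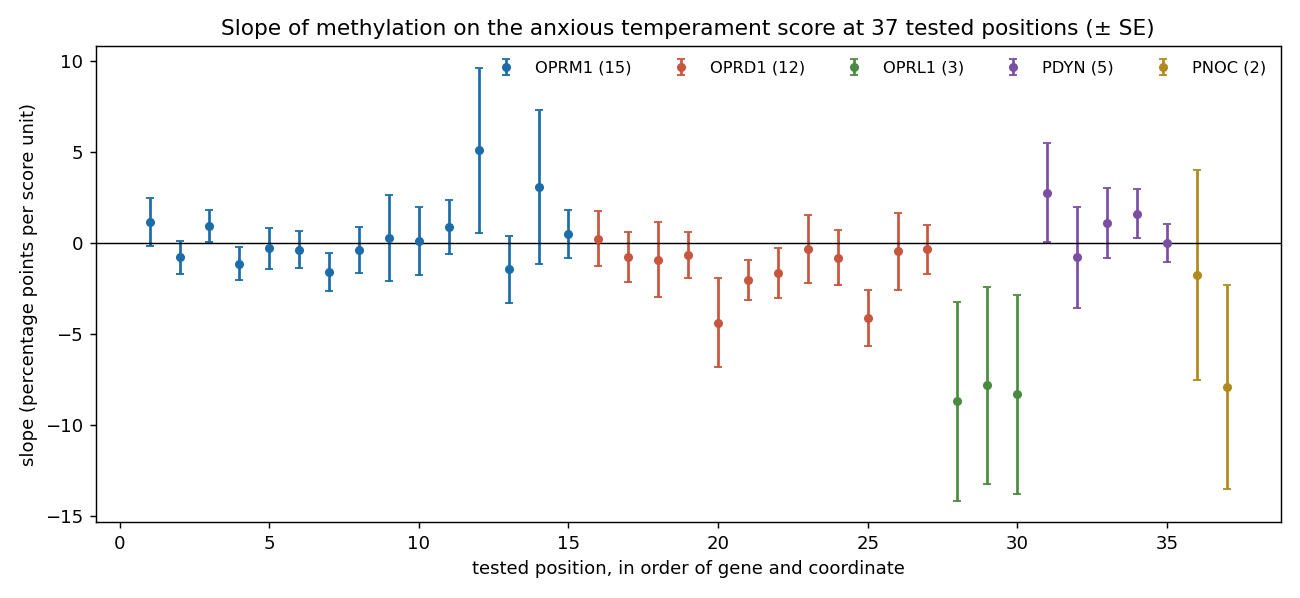
Slope of the methylation level on the anxious temperament score, in percentage points per score unit (vertical axis), with SE, for the 37 tested positions in order of gene and coordinate (horizontal axis), coloured by gene. The 3 OPRL1 slopes lie near -8 with wide errors, 11 of the 12 OPRD1 slopes lie below 0, and the OPRM1 and PDYN slopes lie on both sides of 0.

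The smallest p belonged to a position of the delta receptor gene, OPRD1, at 29189642 in its methylated run. The level there was lowest at 85%, had a median of 96% and was highest at 100%. It was 96.5% ± 5.47 (SD, n = 11) in monkeys with scores below 0, of which 7 stood at 100%, and 92.5% ± 6.12 (SD, n = 11) in those with scores above 0, of which 3 did. The groups overlapped. The slope was -4.12 ± 1.55 (SE, n = 22), with an unadjusted p of 0.0136 and a limma adjusted p of 1. It was -1.32 within the monkeys whose identifiers start with r and -5.42 within those whose identifiers start with B. The labels do not explain these letters, and whether the slopes differ was not tested. Slopes were below 0 at 11 of the 12 tested OPRD1 positions, which lie within 145 bp and come from the same monkeys. Run 2 as a whole had a slope of -1.25 ± 0.95 (SE, n = 22; limma adjusted p = 1). It was -0.75 without left 6, -0.81 without right 1 and -0.77 with each position centred before averaging, and left 3 and right 12 had values at 5 of its 17 positions. Within the r and the B identifiers it was -2.2 and -0.68.

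At the nociceptin receptor gene, OPRL1, slopes were larger and their errors larger too. The 3 intermediate positions had slopes of -8.68 ± 5.46, -7.81 ± 5.4 and -8.3 ± 5.47 (SE, n = 21 each; limma adjusted p = 1 each). The run had a slope of -6.21 ± 3.94 (SE, n = 21), with an unadjusted p of 0.131. Without right 9 it was -6.89 with an unadjusted p of 0.0488 and a limma adjusted p of 1. Without left 11, which had the highest score and the lowest OPRL1 level, it was -2.71, and the slope at 62708567 was -3.97. A least-squares slope, with age in the model and no test, was 2.93 within the 10 monkeys with r identifiers and -8.37 within the 11 with B identifiers. The 10 include right 9, which had the highest run level at 75%. The slope within r is not given without right 9, so whether the direction differs between the identifiers apart from that library is not known.

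At the nociceptin precursor gene, PNOC, 28196839 averaged 50.9% ± 18 (SD, n = 11) in monkeys with scores below 0 and 32.8% ± 18.3 (SD, n = 11) in those with scores above 0, and the groups overlapped. Its slope was -7.89 ± 5.62 (SE, n = 22; limma adjusted p = 1). It was -7.15 without right 9, -3.7 without right 2 and -11.87 without left 11. Within the r and the B identifiers it was -6.9 and -10.78. The PNOC run gave -4.93 ± 3.35 (SE, n = 23; limma adjusted p = 1). It gave -3.04 without right 8, whose only value is at a position that was at 0 in every monkey, and -2.91 with each position centred before averaging.

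At the mu receptor gene, OPRM1, the 9 tested positions of the unmethylated run 1 had slopes of 1.57 points or less in size, the steepest being -1.57 ± 1.04 (SE, n = 22; limma adjusted p = 1) at 154360861, where it was -2.78 within the B identifiers. Run 1 itself varied too little over monkeys to be tested, and so did run 1 of OPRD1. OPRM1 run 2 had a slope of 1.82 ± 2.38 (SE, n = 20; limma adjusted p = 1). It was 0.82 without right 11, 0.9 without right 8 and 1.2 without left 2. Its direction turned between the identifiers, with least-squares slopes of -2.71 within r and 3.76 within B. In the window of PDYN, the prodynorphin gene, the position with the smallest p, 1956168, had a slope of 1.62 ± 1.35 (SE, n = 21; limma adjusted p = 1), and the run 0.52 ± 0.51 (SE, n = 21; limma adjusted p = 1). Without right 2 these were 0.56 and 0.2, and without right 11 the run gave 0.34. Within the B identifiers 1956168 gave 2.66, and the run gave least-squares slopes of 1.45 within r and 0.62 within B. Of the 8 opioid runs, 5 entered the limma test among 21254 runs, and 0 were called, with 0% called in the table. Before adjustment 0 of 5 passed 0.05, against 3.2% of all runs.

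Age, the covariate, gave no opioid position or run past the threshold either. Of the 37 positions 0 were called by limma for age, against 0.0531% of all tested positions, and 1 had an unadjusted p under 0.05 (2.7%), against 4.06%. Slopes on age were above 0 at 30 of the 37 positions and below 0 at 7, while 46.4% of all tested positions were below 0. The 37 positions come from the same monkeys, and many are close neighbours. Their median slope was 3.45 points per year, against 0.52 over all tested positions. This count and median include left 1 and are not given without it. The smallest p values were in the window of PDYN, the dynorphin precursor gene. Its run had a fitted slope of 5.29 ± 1.74 points per year (SE, n = 21), with an unadjusted p of 0.00638 and a limma adjusted p of 0.744. For runs, 0 of 5 were called for age, against 0.0565%, and this 1 of 5 passed at an unadjusted p under 0.05, against 4.81%. Left 1, the oldest monkey at 2.13 years, had the highest PDYN level at 15.4%, and the next highest was 13%. Right 2, the next oldest, stood at 8.89%. Without left 1 the slope was 4.25 with an unadjusted p of 0.202 and a limma adjusted p of 1. Position 1956168 stood at 25% in left 1 and had a slope of 12.99 ± 4.59 (SE, n = 21; limma adjusted p = 0.901). Leaving out left 1 gave 5.6. Position 1956153 had a slope of 17.49 ± 9.46 (SE, n = 21; limma adjusted p = 1), and 50.39 within the r identifiers. OPRM1 run 2 had one of 9.22 ± 7.88 (SE, n = 20; limma adjusted p = 0.999), and 4.7 without right 11.

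**Figure D5:**
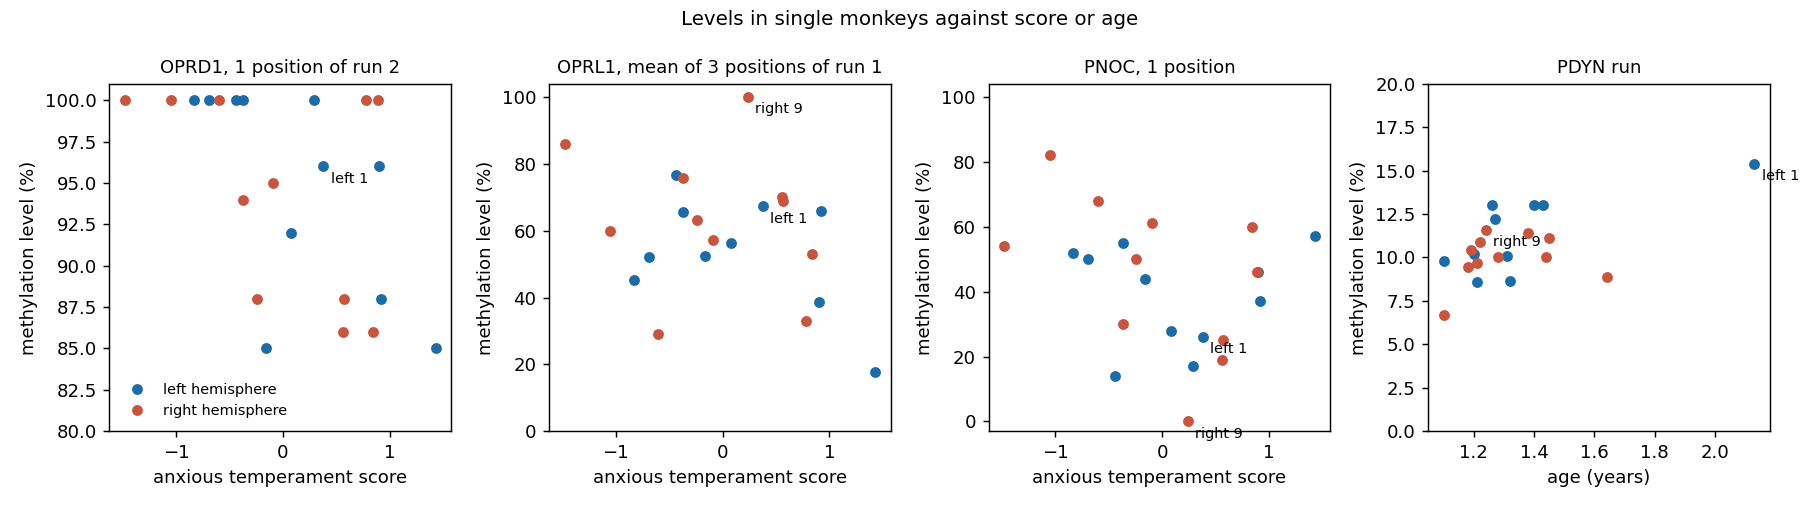
Methylation level in percent (vertical axes, on different scales, the first from 80%) in single monkeys against the anxious temperament score (first 3 panels) or age in years (last panel), left samples in blue and right samples in red. The panels show OPRD1 position 29189642, the mean of 3 OPRL1 positions, PNOC position 28196839 and the PDYN run. Right 9 lies at the end of the range for OPRL1 and PNOC, and left 1 stands alone in age and has the highest PDYN level.

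Right and left samples were compared with score and age in the model. Of the 37 opioid positions 0 were called by limma, as were 0% of all tested positions, and 2 of 37 (5.41%) had an unadjusted p under 0.05, against 3.48%. One was 154360814 in OPRM1 run 1, at 2.71 ± 1.19 points right minus left (SE, n = 22; limma adjusted p = 0.93). Left samples there ran from 0 to 4% with a median of 0, and right samples from 0 to 12% with a median of 2%. Its partner on the other strand, 154360815, had a difference of -0.89 ± 1.34 (SE, n = 21; limma adjusted p = 0.93). The other was PDYN position 1956185, at -3.13 ± 1.5 points (SE, n = 21; limma adjusted p = 0.93), with left samples from 2% to 13% and right samples from 0 to 7%. Without right 9, the sample at 0, it was -2.78 with an unadjusted p of 0.0776. In the PDYN run the left samples averaged 11.4% ± 2.26 (SD, n = 10) and the right samples 10% ± 1.4 (SD, n = 11). Right minus left was -1.02 ± 0.76 points in the model (SE, n = 21; limma adjusted p = 0.975). In OPRL1 run 1 the left samples averaged 40.4% ± 12.8 (SD, n = 10) and the right samples 47.5% ± 15.6 (SD, n = 11). Right minus left was 6.46 ± 5.81 points (SE, n = 21; limma adjusted p = 0.975), and 3.22 without right 9. It was 3.39 with the mean level of the library in the model and -1.48 within the B identifiers, where its direction turned. At PDYN position 1956185 the difference was -2.05 within the r identifiers. Of the 5 runs tested 0 were called, against 0% of all runs, and 0 had an unadjusted p under 0.05, against 3.12%.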

How the data were processed

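Per the labels' protocols, DNA was digested with MspI, size selected, bisulfite treated and sequenced. Bismark 0.11.1 and the human build hg19 stand in the submitters' processing notes. Each value that the authors deposited is the methylated fraction at 1 position in 1 library. The table gives no read counts, so depth is unknown and no counting interval was computed. The sources used here state no coverage filter. Macaque reads were placed on a human build, so stretches where the genomes differ may be missing.

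Fractions were multiplied by 100. Positions (values in at least 20 monkeys, range at least 10 points) and runs (at least 3 positions, gaps of at most 200 bp, plain mean of the values present, range at least 5 points) went into linear models on score and age (limma 3.58.1, R 4.3.3), with a variance trend. Hemisphere was added for its own test. Tests were 2-sided, with p-values adjusted by Benjamini-Hochberg over all features tested. The fit was checked against limma's own functions and tested on simulated data. Replicates are single monkeys.

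Members, tests and lists were chosen with earlier results of these data known. Named by rule in each window were the run with the most positions, the run and the position with the smallest score p and the position with the largest SD, and for age and hemisphere the 2 positions and 2 runs with the smallest p. Other positions were added to describe the runs after their values were seen. Other pathway genes were not analysed here, since no hg19 annotation was used.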

Additional observations from a re-analysis of the deposited data

How the results depend on the processing

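No opioid position or run was called for score, age or hemisphere under any alternative run, including the omission of each monkey in turn. Counts at an unadjusted p under 0.05 were small and moved with single positions, and the causes were not tested. For the score the 1 position became 2 without a range filter and with the mean level as a covariate, 3 with the identifier letter as a covariate, 0 with a wider range filter and 0 in the r identifiers alone. Omitting 1 monkey gave 1 to 3 (2 without right 8, 3 without left 8 or left 9). The 0 runs became 1 without the 2 libraries with the most missing values, and omitting 1 monkey gave 0 to 1 (1 without right 9). For age the 1 position became 0 on the logit scale, 2 without those 2 libraries and 0 in the r identifiers, and ran from 0 (without left 1) to 2 (without right 2 or right 9). The 1 run became 0 with a wider range filter and 0 in the r identifiers, and ran from 0 (without left 1) to 1. For hemisphere the 2 positions became 3 without a range filter, 3 with the mean level as a covariate, 1 without those 2 libraries, 1 with the identifier letter, 1 with no trend in the variance, 1 on the arcsine scale and 1 on the logit scale, 1 in the B and 0 in the r identifiers, and 0 with a wider range filter. They ran from 0 (without left 6, right 8 or left 11) to 2. The hemisphere difference of OPRL1 run 1 changed sign in the B identifiers alone (-1.48). Levels of all runs moved by less than 1 SD. Analyses within 1 identifier letter, and centred means for the levels, were chosen after seeing the data. With positions complete in all 23 monkeys 0 opioid units could be tested. A coverage minimum was not run because the table holds no coverage. No paired analysis was possible because left and right samples come from different animals and their numbers only name them.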
